A study of Sorghum bicolor with 12 samples.

Results

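The 5 genes described here encode chloroplast enzymes of the Calvin cycle and the carrier that exports its product, and they were followed in sorghum (Sorghum bicolor) leaves with and without drought. They are 5 of the 33897 genes in the deposited table and were chosen with earlier results of these data known. By annotation they are subunits A and B of plastid glyceraldehyde-3-phosphate dehydrogenase (GAPDH), a plastid fructose-bisphosphate aldolase, phosphoribulokinase and the triose phosphate/phosphate translocator. Other genes annotated for a plastid aldolase, phosphoribulokinase or the translocator are not among the 5 and are given below. In the cultivar Sanchisan (SCS below) all 5 were lower under drought, by 1.86 to 3.65 on the log2 scale. In the cultivar Jinliang 5 (JL below) none was called, and the drought and control libraries overlapped for every gene. Of all 20873 tested genes 5.41% were called lower in SCS drought, and 0 were called in JL drought. In the direct test of a difference in drought change between the cultivars, edgeR called none of the 5 (adjusted p = 0.0730 to 0.326). DESeq2 called 4 of them in that test.

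The Calvin cycle fixes carbon dioxide onto ribulose bisphosphate in the chloroplast stroma and spends ATP and NADPH to turn the product into triose phosphates. Most of the triose phosphate is used to rebuild the carbon dioxide acceptor, and the rest leaves the chloroplast through the translocator in exchange for phosphate, to be made into sucrose in the cytosol. Sorghum is a C4 grass: carbon dioxide is first captured in mesophyll cells and released again in bundle sheath cells, where Rubisco works. Part of the reduction of 3-phosphoglycerate takes place in mesophyll chloroplasts, from which triose phosphates return to the bundle sheath.

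RNA of leaves was sequenced from SCS with normal water supply (control), SCS under drought, JL with normal water supply and JL under drought, with 3 libraries in each of the 4 groups. The plants of a group carry no transgene or added agent that the labels name, and by the labels the groups of a cultivar differ in water supply alone. The labels give neither the age of the leaves, nor the length or severity of the drought, nor whether the 3 libraries came from separate plants, so the p-values reflect the spread among these samples alone, and that spread may be technical.

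Library totals ran from 15.04 to 18.4 M counts. Expression is given as CPM, counts brought to a common library size, after TMM scaling, which corrects totals for a few very abundant genes, or as the authors' FPKM, which also divides by gene length and is the scale on which different genes are compared here. Leaves were checked by photosynthesis markers, which were abundant in every library: the summed level of the photosystem and antenna genes was 6790 to 211609 CPM. Bulk leaf RNA cannot tell fewer cells of a type from less RNA per cell. The 5 genes together took 1.35 to 2.53% of all counts in SCS control, 0.250 to 0.383% in SCS drought, 2.47 to 3.48% in JL control and 2.58 to 2.86% in JL drought.

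The GAPDH of the chloroplast carries out the reductive step of the cycle, from 1,3-bisphosphoglycerate to glyceraldehyde 3-phosphate, and is built of A and B subunits. Subunit A (LOC110436299) lies on chromosome 6 from 47595854 to 47598357 on the plus strand. Subunit B (LOC110431784) lies on chromosome 1 from 78562770 to 78566103 on the minus strand and differs from A in plants by a C-terminal extension that resembles the regulatory protein CP12. The aldolase (LOC8076279), which joins triose phosphates into fructose bisphosphate and also makes sedoheptulose bisphosphate, lies on chromosome 8 from 5375026 to 5377015 on the minus strand. Phosphoribulokinase (LOC110434320), the enzyme of the last step that regenerates the acceptor of carbon dioxide, lies on chromosome 4 from 61604769 to 61607196 on the minus strand. The translocator (LOC8078074), of the inner chloroplast envelope, lies on chromosome 3 from 272810 to 276515 on the plus strand. Coordinates are those of the deposited table, for which the sources used here name no genome build. The chromosomes and the same starts and ends are those of the reference gene table of assembly Sorghum_bicolor_NCBIv3, and no gene of the deposited table overlaps any of the 5.

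All 5 genes passed the filter on low counts and were tested, among 20873 genes in all. Each comparison below was tested with edgeR's quasi-likelihood F test over the 12 libraries, and calls were made where p, adjusted by Benjamini-Hochberg over the whole set of tested genes, fell below 0.05. A log2 fold change of -1 is a level that is lower by a factor of 2, and SE is its standard error.

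The first comparison asked how SCS leaves differed under drought. All 5 genes were lower in drought, and for each of them every drought library was below every control library. Over all tested genes 5.41% were called lower and 4.09% higher, 9.51% in either direction, and 19.2% had every drought library below every control library. The median log2 fold change was -2.89 over the 5 genes and -0.07 over all tested genes. As the 5 were chosen with earlier results of these data known, this contrast with all genes is a description.

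GAPDH subunit A stood at 1574, 1394 and 3659 CPM in SCS control 1, 2 and 3 and at 154, 216 and 159 CPM in SCS drought 1, 2 and 3. The lowest control library was thus several times the highest drought library. Its mean fell from 2209 ± 1259 to 176 ± 34.6 CPM (SD, n = 3). The log2 fold change was -3.65 with an SE of 0.584 (edgeR adjusted p = 0.00684). Subunit B, the partner of A in the same enzyme, stood at 5177, 4374 and 8759.95 CPM in control and at 1375, 1003 and 514 CPM in drought. Its control library 3 and its drought library 1 were the highest of their groups. It fell from 6104 ± 2335 to 964 ± 432 CPM (-2.66, SE 0.520, edgeR adjusted p = 0.0133).

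The aldolase stood at 2778, 1614 and 4898 CPM in SCS control and at 865, 1229 and 458 CPM in SCS drought. The gap between the groups, from 1229 to 1614 CPM, was the narrowest among the 5 genes. It fell from 3096 ± 1665 to 851 ± 385 CPM (-1.86, SE 0.518, edgeR adjusted p = 0.0484). That call sat at the threshold: it was lost without any of 11 of the 12 libraries (adjusted p = 0.0507 to 0.172) and kept without SCS control 2 (0.0435). Without SCS control 3, the library with the highest level in the group, the log2 fold change was -1.35.

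Phosphoribulokinase stood at 1033, 1007 and 2555 CPM in SCS control and at 135, 205 and 209 CPM in SCS drought. It fell from 1532 ± 886 to 183 ± 42.04 CPM, a log2 fold change of -3.07 (SE 0.494, edgeR adjusted p = 0.00706). Control library 3 was again the highest, and the drought libraries lay close together. The translocator stood at 2634, 1961 and 5096 CPM in control and at 478, 394 and 436 CPM in drought, where its coefficient of variation was 9.62%, the lowest of the 5 genes in that group. It fell from 3231 ± 1650.1 to 436 ± 41.97 CPM (-2.89, SE 0.516, edgeR adjusted p = 0.00993).

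SCS control 3 was the highest control library for all 5 genes. Without it the log2 fold changes were -3.05 for GAPDH subunit A, -2.29 for subunit B, -2.45 for phosphoribulokinase and -2.37 for the translocator. These 4 genes kept their calls without any 1 of the 12 libraries, with an edgeR adjusted p of at most 0.0466.

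**Figure D1:**
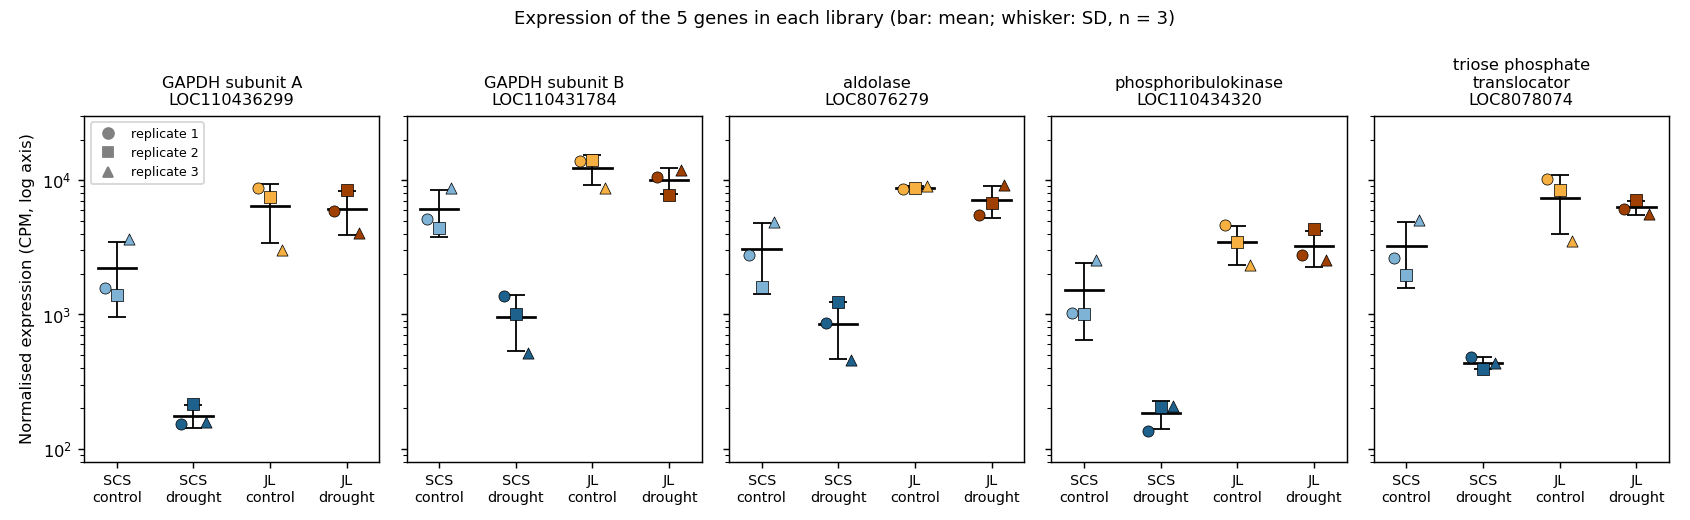
Normalised expression (CPM, log axis) of the 5 genes in each of the 12 libraries, by cultivar and water supply. Points are libraries, shaped by replicate, and bars and whiskers are the mean and SD of 3 libraries. SCS drought lies below SCS control for every gene, while JL control and JL drought overlap.

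The same comparison in JL called none of the 5 genes. It called 0 of 20873 genes in all (0%) by edgeR, while 775 genes (3.71%) had an unadjusted p below 0.05, and DESeq2 called 44. Of all tested genes 2.63% were higher and 2.56% lower in every JL drought library than in any JL control library, and the 5 genes were not among them. None of the 5 genes had an unadjusted p below 0.05, the smallest being 0.565, and DESeq2 called none of them.

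GAPDH subunit A stood at 8674, 7464 and 3040.1 CPM in JL control 1, 2 and 3 and at 5879, 8403 and 4009 CPM in JL drought 1, 2 and 3. The drought libraries all lay within the range of the controls. The log2 fold change was -0.07, with a 95% interval of -1.23 to 1.10. Subunit B stood at 13825, 14169 and 8702 CPM in control and at 10653.5, 7693 and 11959 CPM in drought, with a log2 fold change of -0.28 (-1.36 to 0.81). Its lowest library in JL was a drought library.

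The aldolase stood at 8621, 8686 and 9116 CPM in JL control and at 5472, 6738 and 9288 CPM in JL drought. The JL controls agreed closely, with a coefficient of variation of 3.05%, and 1 drought library lay above them and the other 2 below. Its log2 fold change was -0.30 (-1.41 to 0.81). Phosphoribulokinase stood at 4601, 3451 and 2341 CPM in control and at 2787, 4321 and 2551 CPM in drought (-0.11, -1.12 to 0.90). All its drought libraries lay within the control range. The translocator stood at 10165, 8502 and 3549 CPM in control and at 6106, 7103 and 5598 CPM in drought (-0.24, -1.30 to 0.82), also within it. The intervals reach below -1 for all 5 genes, so a fall by a factor of 2 in JL lies inside them. Without JL control 1 the log2 fold changes of subunit A, phosphoribulokinase and the translocator turned to 0.22, 0.15 and 0.06.

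**Figure D2:**
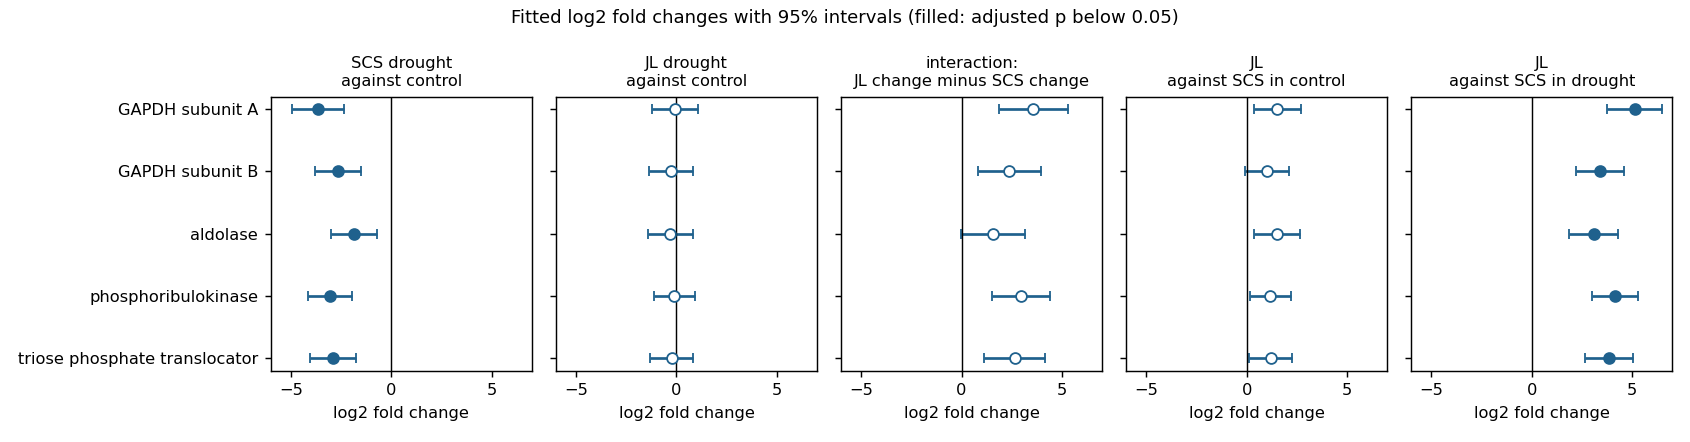
Log2 fold changes of the 5 genes in the 5 comparisons, with 95% intervals from the edgeR fit. The SCS drought changes lie between -3.65 and -1.86 and the JL drought changes between -0.30 and -0.07.

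Whether the drought change differed between the cultivars was tested directly, as the JL change minus the SCS change. The difference was positive for all 5 genes: 3.58 for GAPDH subunit A, 2.96 for phosphoribulokinase, 2.65 for the translocator, 2.39 for subunit B and 1.57 for the aldolase. None of the 5 was called by edgeR (adjusted p = 0.0730, 0.0797, 0.113, 0.149 and 0.326 in that order), where 0.513% of all tested genes were. Before adjustment p was below 0.05 for 4 of them, all but the aldolase, whose 95% interval was -0.01 to 3.14. An unadjusted p below 0.05 was found for 15.4% of all tested genes. DESeq2, which called 1357 genes in all, called the same 4, with adjusted p-values of 1.31e-04, 4.81e-04, 0.00247 and 0.0042. Scaling by total counts alone, added after the values were seen, called subunit A with edgeR (3.45, adjusted p = 0.0392). By edgeR a difference in the drought change of the 5 genes between the cultivars therefore missed the adjusted threshold.

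Under a normal water supply the 5 genes were 1.00 to 1.53 higher in JL than in SCS on the log2 scale. None was called by edgeR (adjusted p = 0.294 to 0.369), where 0.024% of all tested genes were. Before adjustment p was below 0.05 for 4 of the 5, all but GAPDH subunit B, and for 14.4% of all tested genes, and DESeq2, which called 700 genes in all, called the aldolase (1.54, adjusted p = 0.0349). The aldolase was also the gene whose groups did not overlap, at 8621 to 9116 CPM in JL and 1614 to 4898 CPM in SCS, as 12.3% of tested genes were higher in every JL library. Scaling by total counts alone lowered the median of all genes in this comparison by 0.54, and the 5 differences were then 1.01 for subunit A, 0.48 for subunit B, 1.04 for the aldolase, 0.68 for phosphoribulokinase and 0.67 for the translocator.

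Under drought all 5 genes were higher in JL, and every JL library lay above every SCS library. The log2 differences were 5.11 for GAPDH subunit A (SE 0.626, edgeR adjusted p = 0.00159), 4.14 for phosphoribulokinase (SE 0.519, 0.00159), 3.85 for the translocator (SE 0.538, 0.00207), 3.39 for subunit B (SE 0.536, 0.00345) and 3.07 for the aldolase (SE 0.543, 0.00516). Of all tested genes 11.2% were called higher in JL, 7.55% were called lower, and 17.2% had every JL library above every SCS library. With total counts alone, which moved the median of all genes by -0.63, the differences were 4.46, 3.46, 3.21, 2.81 and 2.47 in the same order, all called. This comparison shares the SCS drought libraries with the drought comparison in SCS, so the 2 are not independent.

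**Figure D3:**
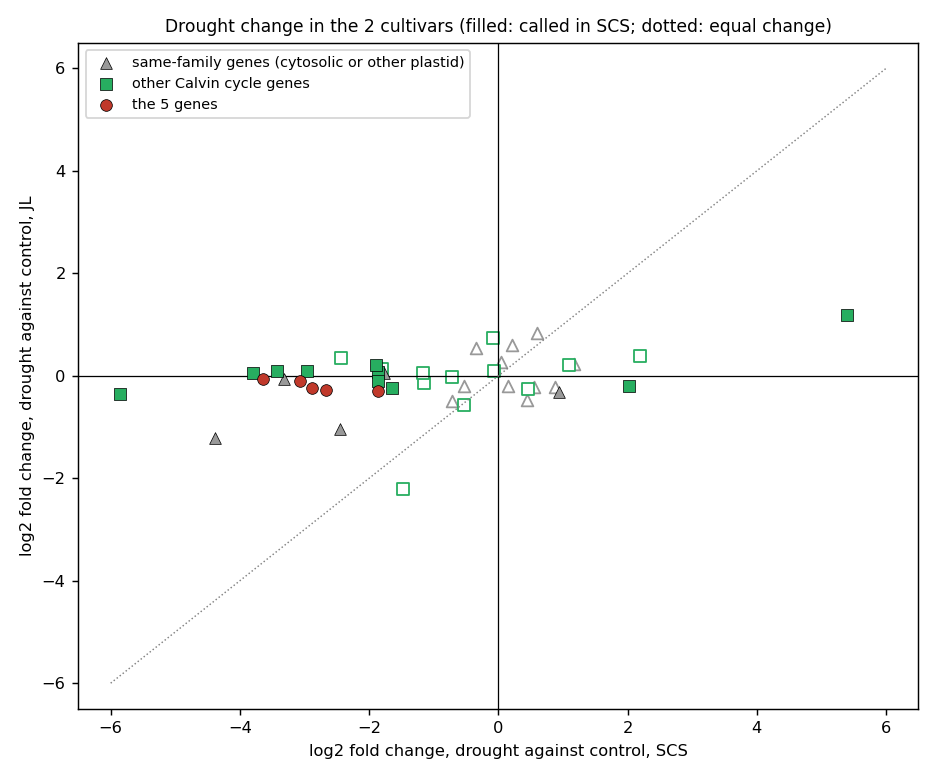
Log2 fold change under drought in SCS (horizontal axis) and in JL (vertical axis) for the 5 genes (circles), the other genes of the cycle (squares) and same-family genes (triangles); filled points were called in SCS. The 5 genes lie between -3.65 and -1.86 in SCS and close to 0 in JL.

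Per length, subunit B of GAPDH had the highest mean FPKM of the 5 genes in every group and phosphoribulokinase or subunit A the lowest. In SCS control the means were 3132 ± 1202 FPKM for subunit B, 1823 ± 933 for the translocator, 1698 ± 915 for the aldolase, 1058 ± 604 for subunit A and 871 ± 505 for phosphoribulokinase (SD, n = 3). Across libraries each gene overlapped its neighbour in this order. Within every SCS control library, however, subunit B ranked 1, subunit A 4 and phosphoribulokinase 5 among the 5 genes. In SCS drought the order was subunit B (507 ± 225 FPKM), the aldolase (478 ± 214), the translocator (253 ± 24.5), phosphoribulokinase (107 ± 24.96) and subunit A (86.6 ± 16.6). Across libraries the translocator and phosphoribulokinase were the only neighbours that did not overlap. Within every SCS drought library the translocator ranked 3, phosphoribulokinase 4 and subunit A 5.

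In JL control subunit B stood at 6427 ± 1661 FPKM, the aldolase at 4936 ± 97.8, the translocator at 4288 ± 2028, subunit A at 3140 ± 1482 and phosphoribulokinase at 2019 ± 681. JL drought had the same order, at 5256 ± 1087, 3988 ± 1062, 3596 ± 480, 2972 ± 1107 and 1864 ± 579 FPKM. Across libraries all neighbours overlapped in both JL groups, but within every JL library phosphoribulokinase ranked 5 among the 5 genes. Among all genes ranked by FPKM, subunit B held ranks 4 to 6 in SCS control and 59 to 168 in SCS drought. Subunit A held ranks 33 to 42 in SCS control and 595 to 1211 in SCS drought, and 30 to 46 over both JL groups.

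Ratios between the 5 genes were compared within each library. The FPKM of the aldolase was 2.02, 1.33 and 1.53 times that of GAPDH subunit A in the SCS controls and 6.44, 6.52 and 3.31 times in SCS drought. The translocator was 1.97, 1.66 and 1.64 times subunit A in control and 3.66, 2.15 and 3.24 times in drought, and phosphoribulokinase 0.780, 0.858 and 0.830 times in control and 1.04, 1.13 and 1.57 times in drought. Subunit A was thus lower against each of these 3 partners in every SCS drought library than in any SCS control library. Of the 10 pairs among the 5 genes, 4 did not overlap between SCS control and drought, the fourth being subunit B against the aldolase (a log2 change of -0.88). For each of the 4 the exact two-sided permutation test gave p = 0.1, or 0.5 after adjustment over the 20 tests of both cultivars. The smallest p that 3 against 3 libraries allow is 0.1. No pair could therefore fall below 0.05, and the test cannot decide whether a ratio changed. Of the 4 pairs 3 contain subunit A, so they are not independent. The share of such pairs among all genes was not computed. The ratio of subunit B to subunit A overlapped, at 3.52, 3.36 and 2.57 in control and 9.58, 4.98 and 3.48 in drought. In JL the aldolase was 1.14, 1.33 and 3.43 times subunit A in control and 1.07, 0.918 and 2.65 times in drought, highest in library 3 of both groups. There 0 of 10 pairs were free of overlap and the smallest exact permutation p was 0.5.

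**Figure D4:**
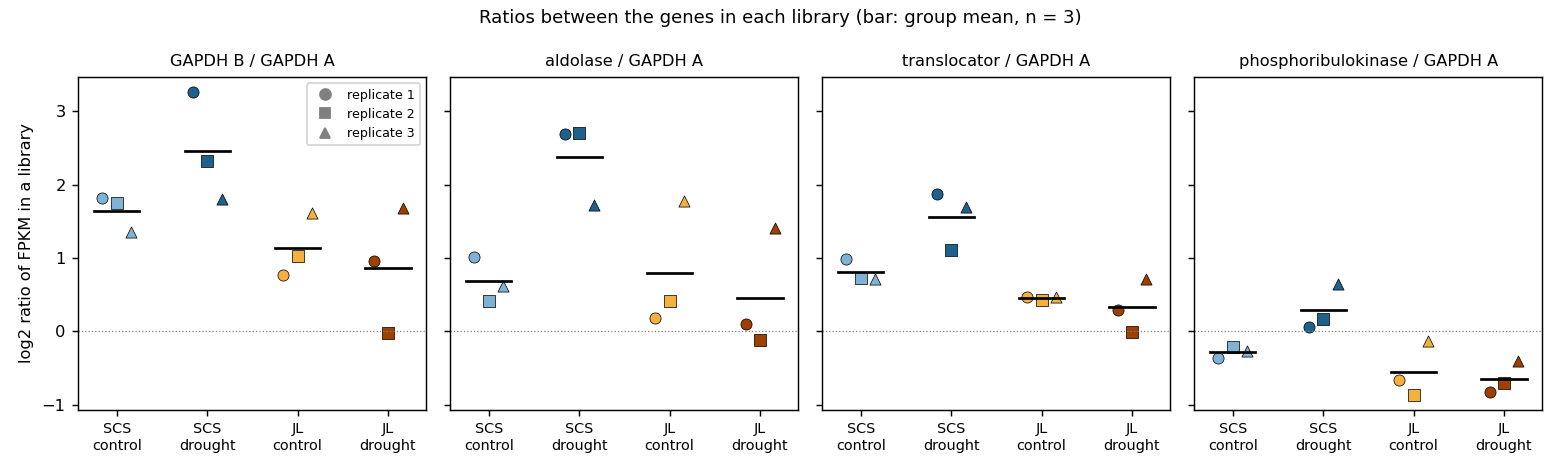
The log2 ratio of FPKM to GAPDH subunit A in each library for subunit B, the aldolase, the translocator and phosphoribulokinase; bars are group means of 3 libraries and points are shaped by replicate. Before taking log2, the aldolase ratios of SCS drought, at 3.31 to 6.52, all exceed those of the SCS controls, at 1.33 to 2.02.

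Over the 12 libraries the log2 CPM of the 5 genes correlated pairwise at a Pearson r of 0.928 to 0.994, a description in which the group differences and the library scaling are shared. Within groups, as deviations from the group mean, the closest pairs were subunit A with phosphoribulokinase (0.905), subunit A with the translocator (0.896) and phosphoribulokinase with the translocator (0.798). Subunit B was closest to the aldolase (0.711). The other pairs ran from 0.208 to 0.578. In JL control 3 both GAPDH subunits, phosphoribulokinase and the translocator were at the lowest level of their group, while the aldolase was at the highest.

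Of the 24 other genes of the cycle and of triose phosphate export, 22 were tested. In SCS 8 fell and 2 rose under drought, against 5.41% and 4.09% of all tested genes. The median log2 fold change was -1.32 over the 22. In JL 0 were called, with a median of 0.06 against 0.04 over all tested genes. In drought 12 were higher in JL than in SCS and 3 lower, against 11.2% and 7.55% of all tested genes. The other 2, a phosphoglycerate kinase copy (LOC8055248) and a second translocator copy (LOC8058293), did not pass the filter on low counts. The sources used here do not say how reads of near-identical copies were counted, so the values of the copies below are uncertain.

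At the start of the cycle, the gene of the Rubisco small subunit (LOC8070647) stood at 1918 ± 1285 CPM in SCS control and 355 ± 207 CPM in SCS drought without being called (-2.43, edgeR adjusted p = 0.0663). Rubisco activase removes sugar phosphates that block Rubisco. Its main gene (LOC8086040) was not called in SCS (1249 ± 791 and 562 ± 142 CPM, adjusted p = 0.203), and the minor gene LOC8082528 fell from 22.1 ± 11.3 to 6.09 ± 2.30 CPM (-1.86, 0.0344). All 3 were higher in JL under drought, by 4.15, 2.47 and 2.37. Phosphoglycerate kinase (LOC8077052) acts just before GAPDH and fell from 1432 ± 638 to 133 ± 12.1 CPM (-3.43, edgeR adjusted p = 0.00708), while JL stood at 3108 ± 1623 and 3314 ± 1355 CPM. Without SCS drought 3 the difference of LOC8070647 between the cultivars in drought became 4.75.

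Triosephosphate isomerase (LOC8063311), which interconverts the triose phosphates, fell in SCS from 673 ± 192 to 86.2 ± 10.3 CPM (-2.96, edgeR adjusted p = 0.00434). Another plastid aldolase gene (LOC8073648) fell further, from 953 ± 503 to 16.5 ± 5.23 CPM (-5.85, edgeR adjusted p = 0.00139). In JL the isomerase stood at 1112 ± 409 and 1187 ± 432 CPM, and this aldolase at 2540.2 ± 212 and 1978 ± 678 CPM. Both were called in the test of the difference between the cultivars (3.06, edgeR adjusted p = 0.0422, and 5.49, 0.00998), and they were the only ones of the 22, where 0.326% of all tested genes were called with a positive difference. The remaining plastid aldolase gene (LOC8070439) was not called (17.7 ± 5.07 and 38.002 ± 3.11 CPM, 0.105). The aldolase described above supplied 75.1 to 79.2% of the FPKM of the 3 plastid aldolase genes in SCS control and 89.8 to 94.8% in SCS drought, with no overlap, against 76.2 to 83.9% over both JL groups.

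In the regeneration of the acceptor, fructose-1,6-bisphosphatase (LOC110430937) fell in SCS from 292 ± 156 to 20.9 ± 13.4 CPM (-3.80, edgeR adjusted p = 0.00753, or -4.47 without SCS drought 2). Sedoheptulose-1,7-bisphosphatase (LOC8060106), of the matching step for the seven-carbon sugar, fell from 490 ± 233 to 132 ± 20.9 CPM (-1.89, 0.0324). The main transketolase gene (LOC8069074), which moves carbon units between sugars, fell from 591 ± 249 to 188 ± 10.99 CPM (-1.65, 0.029). Ribulose-phosphate 3-epimerase (LOC110433451) fell from 1111 ± 449 to 305 ± 70.3 CPM (-1.86, 0.0128). The ribose-5-phosphate isomerase genes LOC110432544 and LOC8083931 were not called in SCS (-1.80, adjusted p = 0.0787, and -0.72, 0.0907) but were higher in JL under drought, by 3.78 and 1.33. The difference of LOC110432544 became 3.15 without JL drought 2. The first 4 genes were also higher in JL under drought, by 5.12 (5.79 without SCS drought 2), 3.39, 2.58 and 2.56, in the order of the text. Phosphoribulokinase had a weak copy (LOC8071104), which was not called (33.7 ± 24.4 and 15.02 ± 10.7 CPM, adjusted p = 0.298).

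The 2 genes that rose in SCS were a second transketolase (LOC8085774), from 0.696 ± 0.418 to 29.3 ± 20.8 CPM (5.39, edgeR adjusted p = 0.029, or 4.65 without SCS drought 2), and a CP12 gene (LOC8057901), from 5.27 ± 0.455 to 21.4 ± 10.8 CPM (2.02, 0.0182). CP12 proteins bind GAPDH and phosphoribulokinase in the dark into a complex in which both are inactive. The most abundant CP12 gene (LOC8070767) was not called (437 ± 181 and 601 ± 374 CPM, adjusted p = 0.61), nor was LOC8083992 (23.7 ± 14.7 and 108 ± 52.2 CPM, 0.132). These 2 risers and LOC8083992 were the 3 genes lower in JL than in SCS under drought, by -7.20, -2.63 and -2.81. The value of LOC8085774 in JL rests on few counts: without JL drought 2 its difference was -11.98. That of LOC8083992 was -3.48 without JL drought 1.

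Leaving out 1 library ended several of these SCS calls. LOC8082528 was no longer called without SCS control 1 or 3, SCS drought 1, SCS drought 3 or JL control 2 (edgeR adjusted p up to 0.140), and LOC8069074 without SCS control 1, SCS control 3 or any SCS drought library (up to 0.114). LOC8060106 lost it without any SCS library or JL control 2 (up to 0.127). LOC8085774 lost it without any SCS control library, SCS drought 1 or SCS drought 2 (up to 0.101), and LOC8057901 without any SCS control library or SCS drought 1 (up to 0.0794). Phosphoglycerate kinase, triosephosphate isomerase, LOC8073648, LOC110430937 and LOC110433451 kept theirs without any 1 library, but LOC110433451 lost its call in a fit of the compared libraries alone (0.0540). In the test of the difference, LOC8063311 lost its call without 10 of 12 libraries, the exceptions being SCS drought 3 and JL drought 2 (up to 0.128), and LOC8073648 without JL control 3 (0.0601). Between the cultivars in drought, LOC8086040 lost its call without SCS drought 1 (0.0533) and LOC8083992 without any of 9 libraries (up to 0.121).

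**Figure D5:**
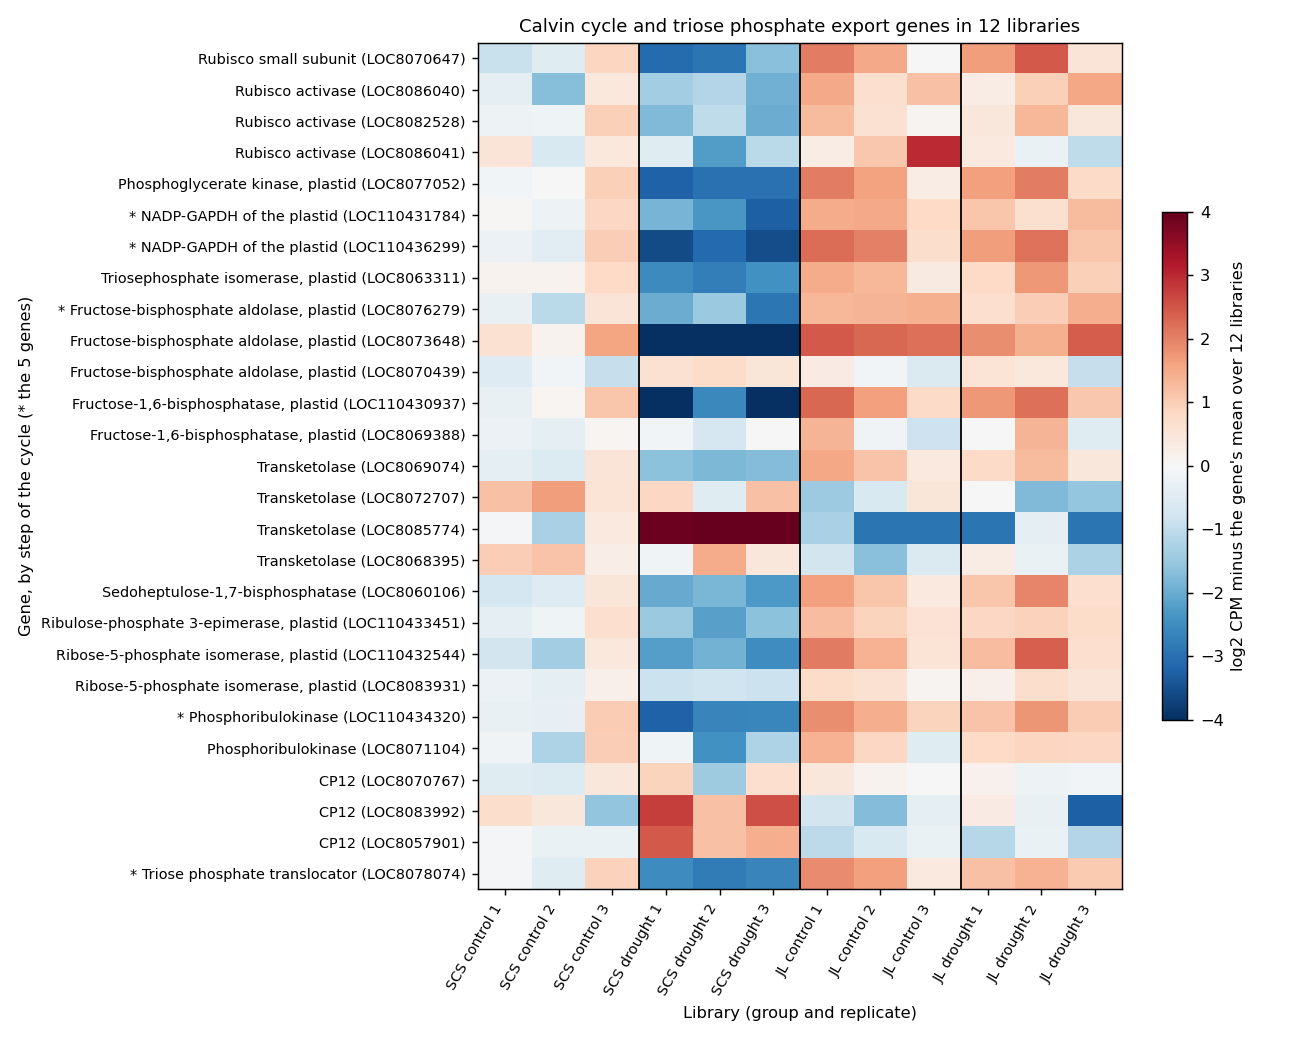
Heat map of log2 CPM relative to each gene's mean over the 12 libraries, for the 5 genes and the other genes of the cycle, with libraries in columns by group. The colour scale ends at -4 and 4, and values beyond take the end colour. The SCS drought columns are low for the 5 genes and high for LOC8057901 and LOC8085774.

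Genes of the same protein families, cytosolic or plastid, included some that rose and some that fell. Of 17 listed, 16 were tested, and 1 rose and 4 fell in SCS drought with a median log2 fold change of 0.10. Over all tested genes 4.09% were called higher and 5.41% lower there. In JL none was called. LOC8068693, a cytosolic GAPDH, had no count in any library.

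Among the 7 other GAPDH genes tested, which include the cytosolic enzyme of glycolysis, 1 rose and none was called lower. The cytosolic gene LOC110430988 rose from 287 ± 46.3 to 551 ± 106 CPM (0.94, edgeR adjusted p = 0.037), while LOC110436825 (722 ± 74.3 and 437 ± 172 CPM), LOC110430989 (204 ± 45.5 and 298 ± 75.3 CPM) and LOC8056489 (135 ± 70.6 and 93.99 ± 57.1 CPM) were not called. Neither were the NADP-dependent gene LOC8080604 (154 ± 58.1 and 159 ± 112 CPM), the plastid glycolytic gene LOC8076121 (21.1 ± 2.42 and 38.6 ± 8.495 CPM) and LOC8062634 (11.8 ± 3.9995 and 9.32 ± 4.48 CPM). Of 3 cytosolic aldolase genes, LOC8082275 fell from 461 ± 198 to 46.3 ± 36.9 CPM (-3.32, edgeR adjusted p = 0.0237, or -3.99 without SCS drought 1). LOC8078696 (212 ± 136 and 245 ± 110 CPM) and LOC8084524 (53.7 ± 40.4 and 121 ± 45.5 CPM) were not called.

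The other plastid phosphate translocators carry glucose 6-phosphate or phosphoenolpyruvate in place of triose phosphate. Of 6 such genes 3 fell in SCS: the glucose 6-phosphate carrier LOC8080141 from 399 ± 123 to 19.01 ± 13.3 CPM (-4.39, edgeR adjusted p = 0.0402), and the phosphoenolpyruvate carriers LOC8055344 from 324 ± 187 to 94.8 ± 15.9 CPM (-1.77, 0.0432) and LOC8078480 from 75.6 ± 6.21 to 13.9 ± 2.35 CPM (-2.45, 0.00766). LOC8085008, LOC8064660 and LOC8072706 were not called (0.15, 0.59 and 0.44). In drought these 3 carriers that fell were higher in JL, by 5.38, 3.64 and 2.26, as were LOC8082275 (3.80) and LOC8062634 (1.43), while LOC110430988 was lower (-1.31). Without JL drought 3 the difference of LOC8080141 was 4.16, and without SCS drought 1 that of LOC8082275 was 4.47.

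Leaving out 1 library ended most of these SCS calls, but not that of LOC8078480. In SCS, LOC110430988 lost its call without any SCS control library, SCS drought 1, SCS drought 2, JL control 2 or JL drought 1 (edgeR adjusted p up to 0.129), and LOC8082275 without SCS control 1 or SCS control 3 (up to 0.0836). LOC8080141 lost it without any SCS library or any JL control library (up to 0.123). LOC8055344 lost it without SCS control 1, SCS control 3, any SCS drought library, JL control 1, JL control 2 or JL drought 1 (up to 0.173), and its change was -1.19 without SCS control 3. In drought between the cultivars, LOC8062634 lost its call without any of 10 libraries (up to 0.142), and LOC8080141 without SCS drought 1 (0.0553). In a fit of the compared libraries alone, LOC8078480 (0.0579), LOC8082275 (0.0612), LOC8080141 (0.0897) and LOC110430988 (0.0601) also lost their calls between the cultivars in drought.

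Likeness to the 5 genes was measured as the mean Pearson r of log2 CPM with them over the 12 libraries, among 8600 genes with a known product and a mean of at least 10 CPM. The 6 highest were LOC8074897, a tetrapyrrole-binding protein of the chloroplast (0.979), LOC8055848, subunit V of photosystem I (0.977), LOC8081476, subunit b' of the chloroplast ATP synthase (0.977), and LOC8083497, TIC 21 of the chloroplast inner envelope (0.975). They were followed by LOC110433572, the cytosolic fructose-1,6-bisphosphatase of sucrose synthesis (0.975), and LOC8064360, a chloroplast adenylate kinase (0.975). Their mean r within groups was 0.721 to 0.773. All 6 were called lower in SCS drought, at log2 fold changes of -4.003, -2.69, -1.61, -3.59, -2.22 and -2.51, and being chosen for their likeness they add no independent evidence. LOC110433572 went from 685 ± 278 to 147 ± 55.0 CPM in SCS and stood at 1386 ± 374 and 1333 ± 111 CPM in JL.

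Markers of leaf cell types were examined beside the 5 genes. Over all tested genes 4.09% were called higher and 5.41% lower in SCS drought. The summed level of 13 mesophyll markers, such as phosphoenolpyruvate carboxylase and pyruvate phosphate dikinase, was 33188 to 73567 CPM in SCS control, 4951 to 13963 in SCS drought, 91464 to 134190 in JL control and 98119 to 122565 in JL drought, and 1 of 12 tested rose and 3 fell in SCS. The sum of 9 bundle sheath markers, which include the Rubisco genes above, was 4938 to 12837 CPM, 3076 to 5185, 16605 to 25685 and 15950 to 25744 in the same order, and 1 rose and 3 fell. For mesophyll markers the SCS groups did not overlap, and for bundle sheath markers they did, only through SCS control 2 (4938 CPM) and SCS drought 2 (5185 CPM). The sums rest largely on few genes. In SCS control LOC8058886 and LOC110430571 had means of 22253 and 21742 CPM among the mesophyll markers. LOC8078737 had a mean of 4355 CPM among the bundle sheath markers. The 42 photosystem and antenna genes summed to 20962 to 67021 CPM in SCS control, 6790 to 23236 in SCS drought, 67119 to 180539 in JL control and 88920 to 211609 in JL drought. Of the 40 tested, 13 fell and 0 rose in SCS, and 36 were higher in JL under drought, as were 11.2% of all tested genes.

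SCS control 3, the control library with the highest level of the 5 genes, also had the highest mesophyll, bundle sheath and photosystem sums of its group, and JL control 3, with the lowest level of subunit A, phosphoribulokinase and the translocator, had the lowest. Markers of dividing cells summed to 127 to 208 CPM in SCS control and 87.1 to 214 CPM in SCS drought with 0 of 14 called, and phloem markers to 416 to 641 and 538 to 717 CPM with 0 of 3 called. Of 16 senescence markers 10 had no count in any library, and 5 were tested. In SCS drought a protease gene (LOC8086230, -8.14) and a STAY-GREEN LIKE gene (LOC8073690, -3.40) fell. STAY-GREEN (LOC8054896, 2.32), pheophorbide a oxygenase (LOC8085484, 1.04) and another protease gene (LOC8079751, 6.81) had positive changes that were not called. LOC8079751 had no count in SCS control and 0 to 2.35 CPM in SCS drought, so its change rests on few counts. These 5 genes are named after their values were seen. The senescence markers summed to 381 to 533 CPM in SCS control and 208 to 968 CPM in SCS drought. The part of a shift in cell types or in senescence in the changes of the 5 genes was not tested.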

How the data were processed

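Leaf RNA of 12 libraries was compared in 4 groups of 3. The authors deposited whole-number counts per gene, not normalised, and FPKM values. FPKM equals count over gene length and a constant of 0.758 to 1.41 times the library total. That constant lay close to the TMM factor in every library, so the FPKM fits are not an independent scaling. Per the labels' protocols libraries were strand-specific. HISAT2 2.0.4, StringTie 1.3.3b and STAR appear in the submitters' processing notes without a role. Which program counted reads, with which strand setting and on which genome build, is not given here. Within each group libraries differed beyond counting noise, so each counts once.

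Counts were tested in R 4.3.3 with edgeR 4.0.16 (filterByExpr, which removed 13024 genes; TMM factors 0.757 to 1.41; quasi-likelihood F test, 1 mean per group), with a biological coefficient of variation of 63.3%. The fit was tested on simulated data with 200 changed genes and otherwise equal means in all groups. The difference in library composition between the cultivars was not simulated, and the outcome is not given here. Alternatives were DESeq2 1.42.0, other scalings, no filter, only the compared libraries, a replicate block, limma 3.58.1 on log2(FPKM + 1) and log2(FPKM + 0.1), and leaving out each library. The named genes are the 5, the most abundant gene per step and called genes of the cycle, same-family genes with a mean of at least 10 CPM in a group, and the 6 most alike. The members and lists were chosen with earlier results of these data known. After matching, 2 methyltransferase genes were dropped from the cycle list and pyruvate phosphate dikinase was restored to the mesophyll list.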

Additional observations from a re-analysis of the deposited data

Results flagged for a closer look

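The drought change differed between the cultivars for 2 genes of the cycle by the interaction term of the edgeR fit. For triosephosphate isomerase (LOC8063311) the JL change exceeded the SCS change by 3.06 on the log2 scale (SE 0.544, edgeR adjusted p = 0.0422), with 673 ± 192 and 86.2 ± 10.3 CPM in SCS control and drought and 1112 ± 409 and 1187 ± 432 CPM in JL (SD, n = 3). For the second plastid aldolase gene (LOC8073648) the difference was 5.49 (SE 0.639, edgeR adjusted p = 0.00998), with 953 ± 503 and 16.5 ± 5.23 CPM in SCS and 2540.2 ± 212 and 1978 ± 678 CPM in JL. The call of LOC8063311 was lost with upper-quartile scaling (adjusted p = 0.0532), with no filter (0.0536), with the replicate block (0.120) and without any of 10 libraries (up to 0.128), and that of LOC8073648 without JL control 3 (0.0601). In both genes every SCS drought library lay below every SCS control library, and the JL groups overlapped.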

How the results depend on the processing

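Counting which of the 5 genes were called, SCS drought gave 5 in the main result and 4 or 5 in every alternative, JL drought 0 throughout and the cultivars in drought 5 throughout. The difference of the drought change gave 0, but 4 by DESeq2 and 1 with total counts alone, and the cultivars in control 0, but 1 by DESeq2. The aldolase lost its SCS call with RLE (adjusted p = 0.0511), upper-quartile scaling (0.0510), no filter (0.0713), the compared libraries alone (0.120), the replicate block (0.108) and both FPKM fits (0.0778 and 0.0675). Among the other named genes, the compared libraries alone also ended the SCS calls of LOC8082528, LOC8069074, LOC110433451, LOC110430988, LOC8082275 and LOC8055344 (0.0540 to 0.0933) and, between the cultivars in drought, those of LOC8083931, LOC8083992, LOC8062634 and the 4 same-family genes of the report (0.0515 to 0.155). The replicate block ended the SCS calls of LOC8082528, LOC8069074, LOC8085774, LOC8060106, LOC110430988, LOC8080141 and LOC8055344 (0.0560 to 0.0837), the drought call of LOC8083992 between the cultivars (0.0623) and the interaction of LOC8063311 (0.120). No filter ended those of LOC110430988 and LOC8055344 in SCS and of LOC8083992 and LOC8062634 in drought, log2(FPKM + 1) that of LOC8055344, and other scalings that of LOC8062634. Total-count scaling was chosen after seeing the data. Over all genes DESeq2 called 4065 in SCS, 44 in JL, 1357 for the difference, 700 between the cultivars in control and 6055 in drought, against 1984, 0, 107, 5 and 3916. The compared libraries alone gave 14 and 986 between the cultivars, FPKM fits 263 and 257 for the difference and 13 and 12 in control. The replicate block gave 17 for the difference and 0 in control. Leaving out 1 library gave 567 to 2539 in SCS (lowest without SCS control 3), 0 to 2 in JL (2 without JL drought 1), 8 to 446 for the difference (446 without SCS drought 3), 0 to 7 in control (7 without JL control 1) and 1864 to 3726 in drought (lowest without SCS drought 1); of the 5 genes, 4 to 5, 0, 0, 0 and 5 were called. Library numbers shared between groups showed no pairing: deviations correlated at -0.491 to 0.383 (median -0.004), above 0.1 in 5 of 18 pairs. Libraries of unlike number correlated at -0.576 to 0.630 (median -0.004), above 0.1 in 15 of 36 pairs, so the block stands only here.

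The precision is limited by 3 libraries a group: the 95% intervals of the JL changes span -1.41 to 1.10.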
